A study of Mus musculus with 2 samples.

Results

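Prdm6, also listed as PRISM, encodes a zinc-finger protein of the PRDM family, whose members carry a PR domain related to the catalytic SET domain of histone methyltransferases. It is known as a transcriptional repressor of smooth muscle and endothelial cells, it has been linked to methylation of histone H4 on lysine 20, and variants of the human gene are known from families with patent ductus arteriosus, a failure of a fetal artery to close. Extraembryonic mesoderm leaves the primitive streak, lines the yolk sac and amnion and forms the allantois, and its blood islands give rise to the first blood and endothelium. Visceral endoderm is the absorptive epithelium that covers the early embryo and later forms the endoderm of the yolk sac.

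The gene was followed through 1 gene row of 32285 and through the 67 of 229480 accessibility peaks that lie within 200000 bp of its start. The data come from a single-nucleus multiome of mouse embryos at embryonic day 7.0, in which nuclear RNA and open chromatin were read from the same droplets, with 1 library for each assay and no second embryo pool. No treatment, genotype contrast or control group was given. The title, age and protocol describe whole embryos, whereas the tissue, cell type and strain fields (RedMUC298trTg) name gut goblet cells of a mucin reporter mouse, and the 8 goblet and intestinal genes together reached 1.38 CPM (counts for each 1000000 UMIs) in epiblast-like, 2.12 CPM in extraembryonic mesoderm-like and 4.54 CPM in visceral endoderm-like nuclei, and at most 8.25 CPM, in parietal endoderm-like nuclei. The gene and its cell types were chosen from values of these nuclei, so its levels are given as a description and carry no p-value.

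Of 15341 barcodes, 12796 nuclei (83.4%) passed the filters, with a median of 10471 UMIs and 17350 peak counts. Nuclei were grouped in 2 ways, by RNA without Prdm6 (17 clusters) and by accessibility without the 67 peaks (19 clusters), and clusters of both kinds were named "-like" from the RNA of marker genes. RNA clusters gave 1096 extraembryonic mesoderm-like, 232 haemato-endothelial progenitor-like, 863 embryonic mesoderm-like, 1863 visceral endoderm-like and 2975 epiblast-like nuclei, and left 2461 unnamed. Accessibility gave no cluster named for extraembryonic mesoderm, except at resolution 2, where 302 nuclei were so named. Of the nuclei that RNA named so, 613 fell into accessibility clusters named embryonic mesoderm-like and 408 into the one named haemato-endothelial progenitor-like, which held 650 nuclei, 227 of them given that name by RNA too. Under the accessibility grouping both mesoderm classes are therefore mixtures with extraembryonic mesoderm, which gave 613 of the 1502 nuclei named embryonic mesoderm-like.

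Prdm6 lies on the plus strand of chromosome 18, with its start listed at 53464516 (mm10) and its RefSeq gene at chr18:53463955-53575904 (GRCm38.p6), where no other RefSeq gene overlaps it. By accessibility class its RNA was highest in haemato-endothelial progenitor-like nuclei, at 1184 CPM (8214 UMIs, 95% Poisson interval 1158 to 1210). Next came the visceral endoderm-like class with 696 CPM (685 to 707) and the embryonic mesoderm-like class with 584 CPM (573 to 596). These 3 stood above the other named classes, and their intervals did not overlap. The 3328 unnamed nuclei held 306 CPM (299 to 312), and 1 unnamed cluster of 908 nuclei, led by visceral endoderm markers, held 606 CPM, above the embryonic mesoderm-like class. Anterior streak, node and definitive endoderm-like nuclei held 41.4 CPM (37.6 to 45.5), primitive streak-like nuclei 17.2 CPM (14.96 to 19.8) and epiblast-like nuclei 9.51 CPM (8.35 to 10.8). Parietal endoderm-like nuclei had 86.6 CPM, from 32 UMIs in 29 nuclei. Ectoplacental cone and giant cell-like nuclei, at 12.4 CPM, and extraembryonic ectoderm-like nuclei, at 12.1 CPM, could not be told from each other within counting error. Extraembryonic ectoderm-like nuclei stood 1.28-fold above epiblast-like nuclei (1.06 to 1.54), but their clusters held 7.41 and 27.5 CPM. Among nuclei given the same name by both groupings the ratio was 1.06 (0.860 to 1.30). All intervals here and below cover counting error only and say nothing about variation between embryos.

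Against epiblast-like nuclei the level was 124-fold higher in the haemato-endothelial progenitor-like class (110 to 142), 73.2-fold in visceral endoderm-like (64.5 to 83.5) and 61.4-fold in embryonic mesoderm-like nuclei (54.1 to 70.1). The 3 ratios share their denominator, which rests on 241 UMIs. With called doublets kept, 6320 nuclei were left unnamed by accessibility in place of 3328, the epiblast-like level was 27.5 CPM, and the ratios were 30.2, 16.5 and 8.08. The haemato-endothelial ratio also came to 75.9 at clustering resolution 0.5, to 63.7 at resolution 2 and to 60.9 with classes from RNA, and the embryonic mesoderm ratio to 40.7 at resolution 2 and 36.1 with classes from RNA. Each class stayed above epiblast-like nuclei in all of these, while the size of the ratio did not hold. With classes from RNA the visceral endoderm-like ratio (68.4) was above the haemato-endothelial one. RNA classes from 3000 variable genes turned that order (757 against 1188 CPM). There, however, 704 nuclei in place of 232 were haemato-endothelial progenitor-like, and none extraembryonic mesoderm-like. It also turned with at least 2000 UMIs and peak counts (579 haemato-endothelial nuclei) and with doublets kept (605). Where that class stayed small, the levels were 757 against 662 CPM at resolution 2 (244 nuclei) and 693 against 701 CPM at resolution 0.5 (250 nuclei).

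The name "extraembryonic and blood mesoderm" covers only some of the nuclei that carry the transcript. Visceral endoderm-like nuclei, of a different germ layer, held it at a level between those of the mesoderm classes under both groupings. Marker levels were as follows: the 11 visceral endoderm genes summed to 16583 CPM in them against 854 CPM in extraembryonic mesoderm-like nuclei, and the 10 extraembryonic mesoderm genes to 51.4 CPM against 371 CPM. The latter list reached 507 CPM in extraembryonic ectoderm-like nuclei. The 10 embryonic mesoderm genes summed to 631 CPM in visceral endoderm-like, 1302 in extraembryonic mesoderm-like and 81.7 CPM in epiblast-like nuclei. That list includes Gata4, which is not restricted to mesoderm here. By accessibility class, Gata4 alone held 463 of the list's 735 CPM in visceral endoderm-like nuclei, and 314 of 1761 CPM in embryonic mesoderm-like nuclei. The part of such markers in the visceral Prdm6 level was not tested.

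With classes from RNA, extraembryonic mesoderm-like nuclei came first at 1077 CPM (1058 to 1097; 12185 UMIs), then visceral endoderm-like at 759 CPM (748 to 770), haemato-endothelial progenitor-like at 676 CPM (645 to 709) and embryonic mesoderm-like nuclei at 401 CPM (389 to 414). Parietal endoderm-like nuclei held 230 CPM, and 101 of these 132 nuclei were visceral endoderm-like by accessibility. Epiblast-like, ectoplacental cone-like and extraembryonic ectoderm-like nuclei, at 11.1, 11.2 and 10.9 CPM, did not differ beyond counting error. Nuclei named extraembryonic mesoderm-like by RNA and placed in the haemato-endothelial cluster by accessibility had the highest level of any joint class, 1483 CPM (1447 to 1519, 408 nuclei). Those placed with embryonic mesoderm by accessibility had 872 CPM (849 to 895, 613 nuclei), and nuclei named haemato-endothelial progenitor-like by both had 684 CPM (651 to 717, 227 nuclei). Inside that accessibility cluster, the nuclei named haemato-endothelial progenitor-like by RNA were thus lower than those named extraembryonic mesoderm-like.

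**Figure D1:**
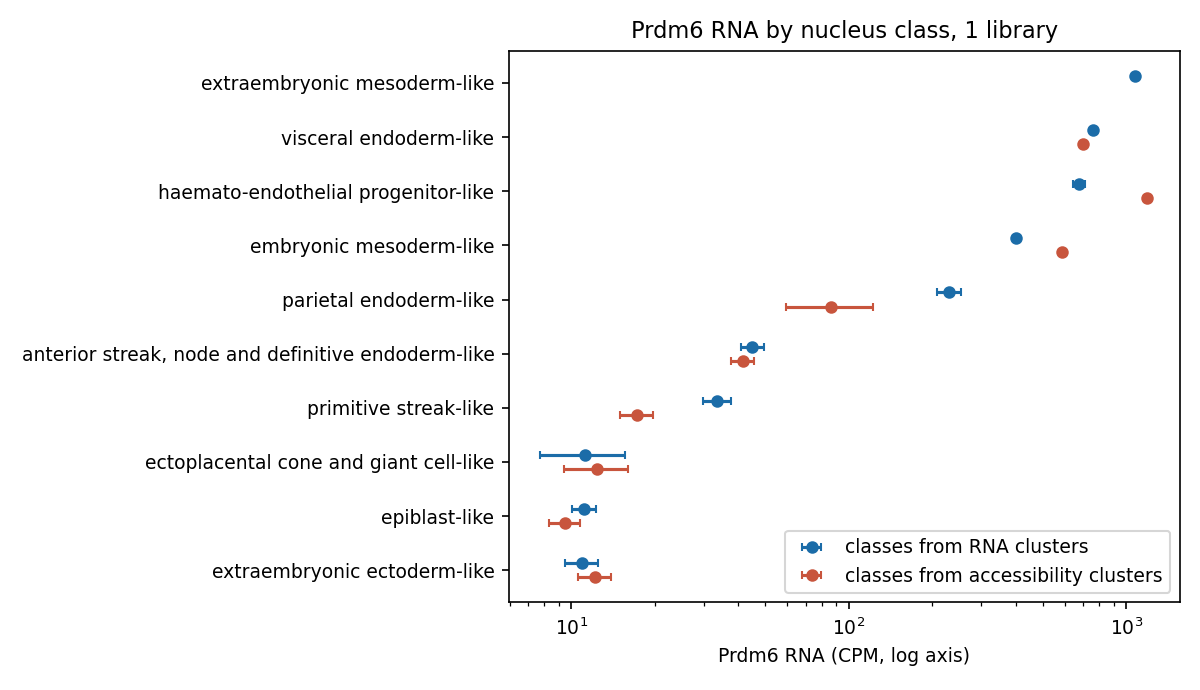
Prdm6 RNA (CPM, log axis) in each nucleus class, with classes from RNA clusters in blue and from accessibility clusters in red; bars are 95% Poisson intervals and cover counting error only. The mesoderm classes and visceral endoderm-like nuclei lie between 401 and 1184 CPM, whereas epiblast-like, extraembryonic ectoderm-like and ectoplacental cone-like nuclei lie near 10 CPM.

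Most nuclei of the high classes carried the transcript. At least 1 UMI was found in 97.2% of haemato-endothelial progenitor-like nuclei by accessibility (exact binomial interval 95.7 to 98.4), in 93.1% of visceral endoderm-like and 77.5% of embryonic mesoderm-like nuclei, with medians of 11, 8 and 4 UMIs. The share was 9.32% in epiblast-like and 11.2% in extraembryonic ectoderm-like nuclei, whose nuclei held medians of 11080 and 12652 UMIs. After thinning each nucleus to 5000 UMIs, which kept 600 of 650 haemato-endothelial progenitor-like, 1462 of 1602 visceral endoderm-like, 1375 of 1502 embryonic mesoderm-like, 2068 of 2103 epiblast-like and 1136 of 1239 extraembryonic ectoderm-like nuclei, the shares were 95.5% in haemato-endothelial progenitor-like, 89.5% in visceral endoderm-like, 71.2% in embryonic mesoderm-like, 4.34% in epiblast-like and 4.44% in extraembryonic ectoderm-like nuclei. These last 2 shares were the lowest of the 5. Against visceral endoderm-like nuclei, the visceral endoderm genes stood at 5.43% in epiblast-like and 14.8% in extraembryonic ectoderm-like nuclei, and Prdm6 at 1.37% and 1.74%. How much of this is stray RNA was not tested.

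The promoter peak of Prdm6, chr18:53463712-53464540, was nearly level over the embryonic and visceral classes while the RNA was not. It held 34.8 CPM of peak counts in epiblast-like nuclei (classes from RNA, here and for all peaks and neighbouring genes), 38.9 in embryonic mesoderm-like, 31.0 in extraembryonic mesoderm-like, 35.1 in haemato-endothelial progenitor-like and 34.8 in visceral endoderm-like nuclei. Against epiblast-like nuclei the ratio was 0.893 in extraembryonic mesoderm-like (0.787 to 1.01), 1.01 in haemato-endothelial progenitor-like (0.787 to 1.28), 1.12 in embryonic mesoderm-like (0.9949 to 1.25) and 1.003 in visceral endoderm-like nuclei (0.909 to 1.10), with intervals from estimated fragments. Primitive streak-like nuclei had 41.1 CPM, a ratio of 1.18 (1.05 to 1.34). The promoter was not level everywhere. Extraembryonic ectoderm-like nuclei had 14.8 CPM, a ratio of 0.427 (0.365 to 0.498), and ectoplacental cone and giant cell-like nuclei 10.3 CPM, a ratio of 0.297 (0.178 to 0.466), so the trophoblast classes shared the low RNA of the epiblast but not its open promoter. This was not particular to Prdm6. The promoter peak of the neighbouring gene Ppic held 18.98 CPM in epiblast-like nuclei but 8.38 and 3.07 CPM in these 2 classes. Across the 17 RNA clusters the promoter's level went with the RNA by Pearson r = 0.43 and Spearman rho = 0.08, over points that share a library.

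Of the 67 peaks, 63 were distal, meaning outside every promoter window, 3 lay at promoters of other genes and 1 was the Prdm6 promoter. A distal peak was taken to follow the RNA where it was at least 2-fold higher in both extraembryonic mesoderm-like and haemato-endothelial progenitor-like nuclei than in epiblast-like nuclei, on at least 20 counts. By that rule 22 of the 62 distal peaks with enough counts followed, beside 9.49% of all distal peaks. Since the rule chose them, the count is a description. The rule left out visceral endoderm-like nuclei, so a peak could pass without tracking the RNA over all clusters. Over the 17 RNA clusters the Pearson r of the 22 with the RNA ran from −0.09, 152 kb upstream, to 0.92, 49 kb into the gene. By a comparison added later, 10 of the 22 were at least 2-fold higher in both mesoderm classes than in visceral endoderm-like nuclei. In 3 the reverse held, and 9 were neither. For 16 of the 22 both lower interval bounds lay above 1, for 10 both lay above 2, and 13 stayed under 5 CPM in both mesoderm classes, so a few strong peaks carry most of the signal. The lowest count behind any of them in haemato-endothelial progenitor-like nuclei was 3. Of the 22, 9 lay upstream of the start, 9 inside the gene and 4 beyond its end. Just inside the rule was a peak 43 kb upstream, at 2.39-fold and 2.19-fold, and just outside it a peak at 159 kb, at 1.95-fold and 4.68-fold. Taken singly, extraembryonic mesoderm-like nuclei had 28 of 62 distal peaks at least 2-fold higher (17.6% of all distal peaks) and 5 lower (18.4%), and haemato-endothelial progenitor-like nuclei 27 higher (17.1%) and 14 lower (34.0%).

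Ranked by the sum of log2 ratios in both mesoderm classes, the first was 131 kb beyond the start and past the 3′ end of the gene (chr18:53595528-53596441). It held 0.450 CPM in epiblast-like nuclei, 14.996 in embryonic mesoderm-like, 28.7 in extraembryonic mesoderm-like and 21.6 in haemato-endothelial progenitor-like nuclei, but 1.44 in visceral endoderm-like nuclei. Its ratio to epiblast was 63.9 (38.1 to 116) in the extraembryonic and 48.0 (26.4 to 92.5) in the haemato-endothelial class. In extraembryonic mesoderm-like nuclei this distal peak was about as open as the promoter itself.

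A peak 49 kb into the gene (chr18:53513160-53514071) was open in mesoderm and, at a lower level, in visceral endoderm-like nuclei. It rose from 0.481 CPM in epiblast-like nuclei to 23.1 in embryonic mesoderm-like, 24.8 in extraembryonic mesoderm-like, 26.0 in haemato-endothelial progenitor-like and 10.4 in visceral endoderm-like nuclei. In haemato-endothelial progenitor-like nuclei its ratio to epiblast was 53.9 (30.7 to 99.5), against 48.0 for the peak at 131 kb. Of the 67 peaks it had the highest Pearson r with the RNA over clusters, 0.92. These clusters include the ones whose values chose it. A second peak inside the gene at 67 kb (chr18:53530710-53531555) went from 1.23 CPM to 21.8, 26.3, 17.05 and 6.20 CPM over the same classes. Both were thus open in these mesoderm and visceral classes and nearly closed in the epiblast. Some classes with little Prdm6 RNA had them open too. Primitive streak-like nuclei, at 33.6 CPM of RNA, held 2.37 CPM at 49 kb and 7.23 CPM at 67 kb, the latter above the visceral endoderm-like level. Anterior streak-like nuclei, at 44.9 CPM of RNA, held 6.90 and 4.95 CPM, whereas extraembryonic ectoderm-like nuclei held 0.931 and 0.399 CPM.

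A group of 3 peaks stood 34 to 39 kb upstream, between Prdm6 and Ppic. The peak at 37 kb (chr18:53426896-53427746) held 0.652 CPM in epiblast-like, 11.2 in embryonic mesoderm-like, 22.8 in extraembryonic mesoderm-like, 19.1 in haemato-endothelial progenitor-like and 1.53 in visceral endoderm-like nuclei. The peak at 39 kb (chr18:53425543-53426398) held 0.962, 5.34, 15.6, 15.3 and 1.59 CPM in that order, and the one at 34 kb (chr18:53430529-53431392) 0.295, 2.08, 4.92, 3.82 and 0.275 CPM. The group was open in mesoderm and stayed under 2 CPM in visceral endoderm-like nuclei, where the peak at 37 kb was 2.34-fold above the epiblast level (1.28 to 4.34).

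The other 4 of the 10 leading peaks differed between the mesoderm classes. The peak 60 kb into the gene (chr18:53524313-53525137) leaned to extraembryonic mesoderm-like nuclei, with 12.4 CPM against 3.56 in haemato-endothelial progenitor-like nuclei and 0.838 in epiblast-like nuclei. Its neighbour at 65 kb (chr18:53529640-53530276) leaned the other way, with 2.59 against 7.63 CPM. The peak at 122 kb (chr18:53586457-53587361) held 3.02 CPM in extraembryonic mesoderm-like but 12.98 in haemato-endothelial progenitor-like and 13.3 in visceral endoderm-like nuclei, with 0.640 in embryonic mesoderm-like nuclei. The peak 6 kb upstream (chr18:53458041-53458515) held 0.794 CPM in extraembryonic mesoderm-like and 4.33 in haemato-endothelial progenitor-like nuclei, and 26.7 in visceral endoderm-like nuclei against 0.186 in epiblast-like nuclei.

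**Figure D2:**
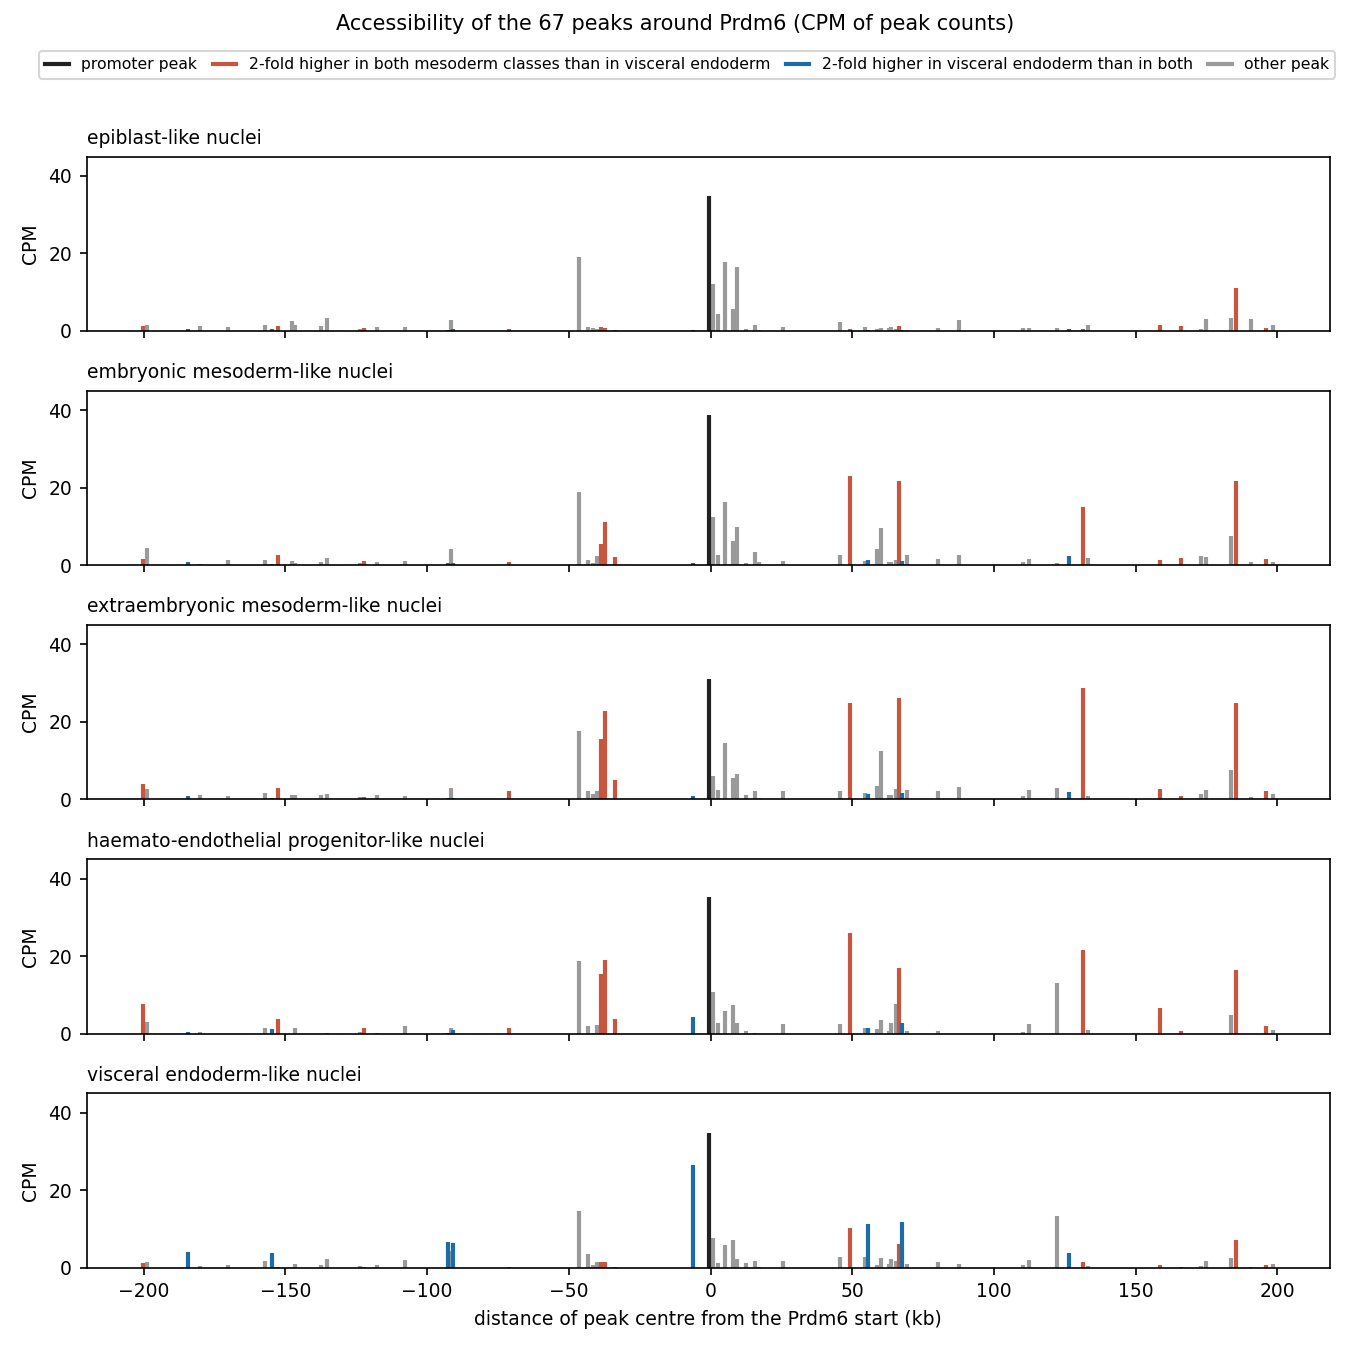
Accessibility (CPM of peak counts) of the 67 peaks against distance from the Prdm6 start (kb) in 5 classes from RNA clusters; red peaks are 2-fold higher in both mesoderm classes than in visceral endoderm-like nuclei, blue peaks the reverse, black is the promoter peak. The promoter bar stays between 31.0 and 38.9 CPM in all 5 panels, while the red and blue bars change between panels.

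Visceral endoderm-like and mesoderm nuclei, both high in RNA, were then compared directly over the distal peaks. The contrast was added after these values had been seen. Of 61 distal peaks with enough counts, 14 were at least 2-fold higher in both extraembryonic mesoderm-like and haemato-endothelial progenitor-like nuclei than in visceral endoderm-like nuclei, beside 23.6% of all distal peaks, so this share is near the background. In the other direction 8 were higher in visceral endoderm-like nuclei than in both, beside 14.9%, again a share near the background. The counts set the locus no further apart than other distal peaks, and the values of single peaks are given as a description. The peak 6 kb upstream had 26.7 CPM in visceral endoderm-like nuclei, close to the promoter's 34.8 CPM, and 2 peaks at 55 and 68 kb inside the gene (chr18:53519589-53520354 and chr18:53531760-53532522) had 11.3 and 11.8 CPM there against 1.27 and 1.64 CPM in extraembryonic mesoderm-like nuclei. A pair of upstream peaks at 93 and 91 kb had 6.78 and 6.45 CPM against 0.424 and 0.371 CPM. The remaining 3 of the 8, at 185 and 155 kb upstream and 126 kb downstream of the start, stayed at 3.94 to 4.004 CPM. Summed over the 8, visceral endoderm-like nuclei held 74.9 CPM, extraembryonic mesoderm-like 7.68, haemato-endothelial progenitor-like 11.7 and epiblast-like nuclei 2.95 CPM. Summed over the 14, the same classes held 32.4, 164, 143 and 22.4 CPM. The 8 were also open elsewhere, summing to 53.8 CPM in parietal endoderm-like nuclei. Anterior streak, node and definitive endoderm-like nuclei held 15.2 CPM over them, at 44.9 CPM of Prdm6 RNA. At a 3-fold rule the 14 became 9.

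Compared with epiblast-like nuclei by the same 2-fold rule, 21 of 62 distal peaks were higher in visceral endoderm-like nuclei, beside 18.6% of all distal peaks, and 13 lower, beside 39.3%. Of 63, 21 were higher in embryonic mesoderm-like nuclei, beside 16.1%, and 5 lower, beside 16.9%. These comparisons use the same epiblast-like nuclei as the mesoderm rule. The median log2 ratio to epiblast over the distal peaks with enough counts was 0.69 in extraembryonic mesoderm-like, 0.69 in haemato-endothelial progenitor-like, 0.51 in embryonic mesoderm-like and 0.17 in visceral endoderm-like nuclei, against −0.06, −0.17, −0.07 and −0.57 over all distal peaks.

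Other peaks beside the promoter did not follow the RNA. The nearest, 1 kb into the gene (chr18:53464966-53465805) and outside the promoter window, had 12.2 CPM in epiblast-like and 12.5 in embryonic mesoderm-like nuclei. It had 6.03 CPM in extraembryonic mesoderm-like nuclei, 0.493 of the epiblast level (0.374 to 0.641), with 10.7 in haemato-endothelial progenitor-like and 7.73 in visceral endoderm-like nuclei. The peak 9 kb into the gene (chr18:53473478-53474311) had 16.5 CPM in epiblast-like nuclei, 9.87 in embryonic mesoderm-like, 6.62 in extraembryonic mesoderm-like, 2.80 in haemato-endothelial progenitor-like and 2.38 in visceral endoderm-like nuclei. The peak at 5 kb (chr18:53469078-53469964) had 17.9 CPM in epiblast-like and 14.7 in extraembryonic mesoderm-like nuclei, but 5.85 in haemato-endothelial progenitor-like and 5.84 in visceral endoderm-like nuclei. In extraembryonic ectoderm-like nuclei, where the RNA was also low, the peaks at 9 and 5 kb held 2.57 and 1.11 CPM, and in ectoplacental cone-like nuclei 1.95 and 4.47 CPM. All of these peaks were named after their values were seen.

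Over the 17 RNA clusters the summed accessibility of the 22 following peaks ran from 14.0 CPM in the ectoplacental cone-like cluster to 171 CPM in the extraembryonic mesoderm-like cluster. The rule chose these peaks by values of the extraembryonic mesoderm-like, haemato-endothelial progenitor-like and epiblast-like clusters. The contrast of those clusters is therefore a description. The epiblast-like clusters had 14.2 and 15.02 CPM, primitive streak-like nuclei 33.3 CPM at a Prdm6 RNA level of 33.6 CPM, and anterior streak-like nuclei 39.2 CPM at 44.9 CPM of RNA. The 3 visceral endoderm-like clusters had 104, 96.7 and 106 CPM of accessibility at 794, 831 and 253 CPM of RNA, so among these clusters a lower RNA level was not matched by lower accessibility. The cluster with the lowest RNA of the 3 also had the fewest UMIs per nucleus, a median of 8593, and the part of depth in this was not tested.

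**Figure D3:**
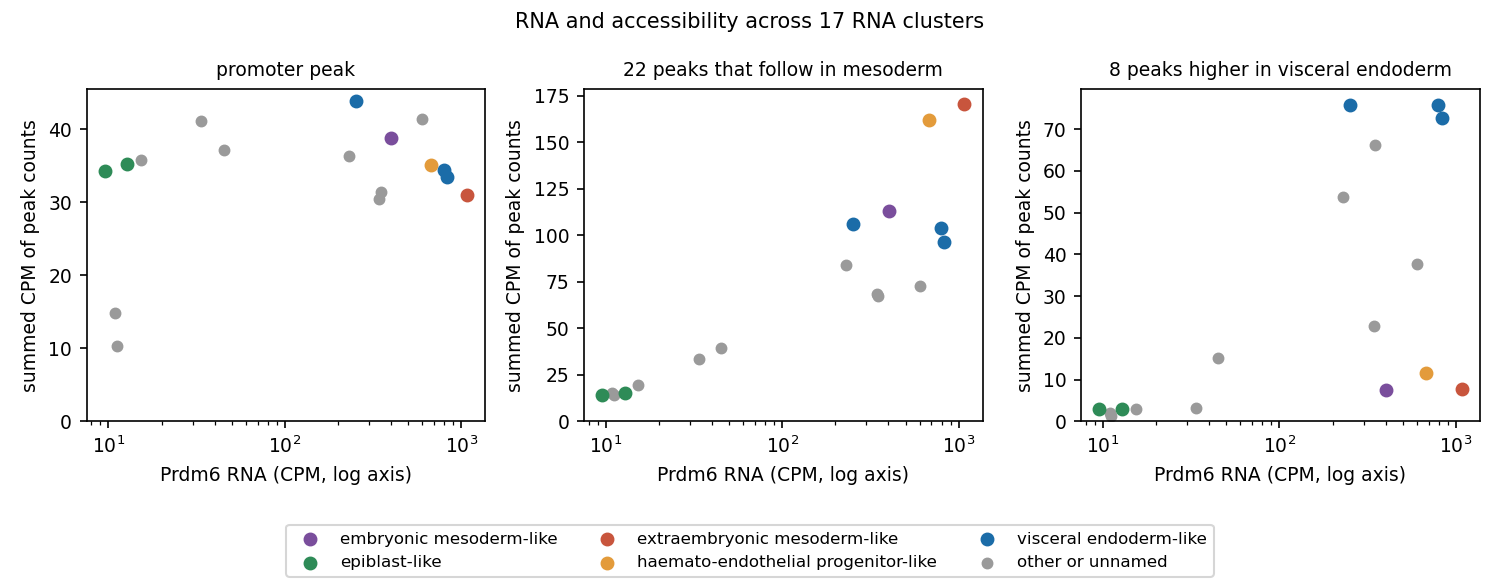
Prdm6 RNA (CPM, log axis) against accessibility (summed CPM of peak counts) in the 17 RNA clusters, for the promoter peak, the 22 peaks that follow in mesoderm and the 8 peaks higher in visceral endoderm-like nuclei; each point is a cluster, coloured by class. The 22 and the 8 peaks were chosen by values of some of these clusters. The promoter stays between 30.4 and 43.8 CPM in all clusters except the 2 trophoblast ones, at 14.8 and 10.3 CPM, while the panel of the 8 peaks sets the 3 visceral endoderm-like clusters (72.8 to 75.9 CPM) above the named mesoderm clusters (7.47 to 11.7 CPM).

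Within single classes, nuclei with a Prdm6 UMI were compared with nuclei without one. Embryonic mesoderm-like and primitive streak-like nuclei did not enter the rule for the 22 peaks, but they come from the same library. Of the 22, 16 were also at least 2-fold higher in embryonic mesoderm-like than in epiblast-like nuclei. The values below are therefore a description. Over embryonic mesoderm-like nuclei the 22 peaks summed to 130 CPM in 617 nuclei with a UMI and 64.3 CPM in 246 without, 2.02-fold (1.72 to 2.40), while the promoter had 36.9 and 44.2 CPM, 0.835-fold (0.669 to 1.05). The 8 peaks weighted to visceral endoderm were also higher in these nuclei with a UMI, 9.05 against 3.04 CPM or 2.97-fold (1.43 to 7.17), on 125 and 15 counts. For the 22 peaks, the ratio over nuclei without a UMI was 1.80 (1.5001 to 2.17) at 1 to 4 UMIs and 2.22 (1.86 to 2.65) at 5 or more. In primitive streak-like nuclei the 22 peaks were 2.28-fold higher (1.73 to 2.97; 108 nuclei against 625) and the promoter 1.05-fold (0.780 to 1.39). In the 90 of these nuclei with 1 to 4 UMIs the ratio for the 22 peaks was 1.84 (1.32 to 2.51). Among nuclei of at least 8000 UMIs, a limit set after these values were seen, the 22 peaks were 1.99-fold (1.65 to 2.40) and 2.42-fold (1.81 to 3.21) higher in the 2 classes.

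Some other markers moved with Prdm6 in these nuclei. In embryonic mesoderm-like nuclei with a UMI the 9 haemato-endothelial genes summed to 163 CPM against 53.6 CPM and the 8 primitive streak genes to 1073 against 1939 CPM. The embryonic mesoderm genes stood at 1918 against 1546 CPM there, and the extraembryonic mesoderm genes at 45.6 against 39.4 CPM, a smaller difference. In primitive streak-like nuclei the extraembryonic mesoderm genes summed to 118.5 against 56.0 CPM and the embryonic mesoderm genes to 420 against 225.5 CPM. Their part in the accessibility difference was not tested. The visceral endoderm genes, by contrast, stood at 800 against 775 CPM in embryonic mesoderm-like and at 740 against 815 CPM in primitive streak-like nuclei.

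Other classes gave other values. In visceral endoderm-like nuclei the 22 peaks were 0.975-fold (0.726 to 1.34) and the 8 visceral-weighted peaks 0.897-fold (0.641 to 1.29) in nuclei with a UMI, but only 70 nuclei lacked one, at a median of 5306 UMIs against 12819. In extraembryonic mesoderm-like nuclei the 22 peaks were 1.42-fold (1.15 to 1.77) and the promoter 0.621-fold (0.443 to 0.892), at median depths of 10323 and 6754 UMIs. Markers differed between these nuclei too, with the extraembryonic mesoderm genes at 391 against 117 CPM, the haemato-endothelial genes at 436.5 against 158, the primitive streak genes at 788 against 1560 and the epiblast genes at 865 against 1378 CPM. The part of depth and of these markers was not tested. Epiblast-like nuclei gave 1.43-fold (1.10 to 1.85) for the 22 peaks, or 1.29-fold (0.969 to 1.69) at 1 to 4 UMIs, and 1.01-fold (0.835 to 1.21) for the promoter. In those with a UMI the embryonic mesoderm genes stood at 114.6 against 77.5 CPM and the visceral endoderm genes at 954 against 788 CPM, and their part was not tested. Anterior streak-like nuclei gave 1.504-fold (1.19 to 1.89) for the 22 peaks and 0.957-fold for the promoter. In extraembryonic ectoderm-like nuclei the 22 peaks were 1.69-fold (1.12 to 2.48) in 141 nuclei with a UMI, but 1.05-fold (0.615 to 1.69) in the 135 of them with 1 to 4 UMIs.

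**Figure D4:**
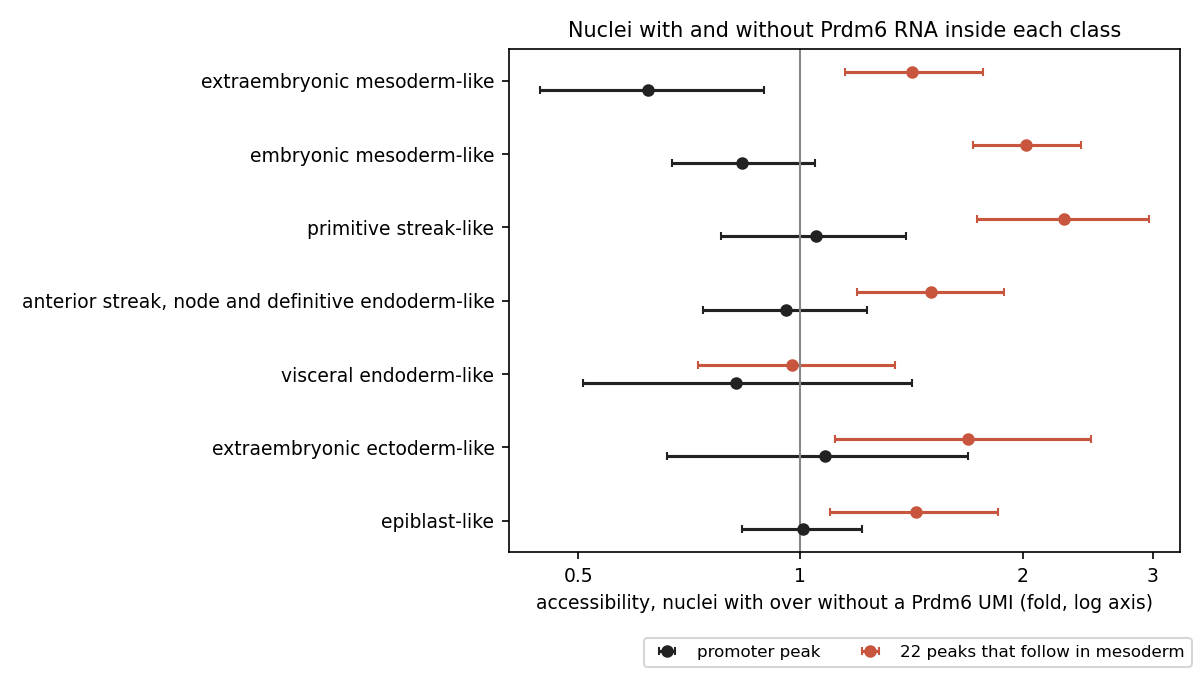
Accessibility of nuclei with a Prdm6 UMI over nuclei without one (fold, log axis) inside each class from RNA clusters, for the promoter peak (black) and the 22 peaks that follow in mesoderm (red); bars are 95% intervals for counting error. The red points of embryonic mesoderm-like and primitive streak-like nuclei lie at 2.02 and 2.28, with the promoter at 0.835 and 1.05.

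Genes listed within 500000 bp did not share the pattern at its size. Ppic, which encodes the peptidyl-prolyl isomerase cyclophilin C and starts 46 kb upstream, came closest, with a Pearson r of 0.79 with Prdm6 over the 17 RNA clusters. Its RNA stood at 10.1 CPM in epiblast-like, 55.4 in extraembryonic mesoderm-like, 69.6 in haemato-endothelial progenitor-like, 29.3 in embryonic mesoderm-like and 24.0 CPM in visceral endoderm-like nuclei, while its own promoter peak held 18.98 CPM in epiblast-like and 17.7 in extraembryonic mesoderm-like nuclei. By RNA class Ppic was thus highest in the blood-forming class and Prdm6 in the extraembryonic mesoderm-like class. By accessibility class both were highest in the haemato-endothelial progenitor-like class, Ppic at 71.9 CPM. That accessibility class cannot separate the 2 patterns, since 408 of its 650 nuclei were extraembryonic mesoderm-like by RNA. The sorting nexin genes Snx2 and Snx24 had r of 0.55 and 0.44. Snx2 was 5.04-fold higher in visceral endoderm-like and 1.29-fold in extraembryonic mesoderm-like nuclei, and Snx24 1.96-fold in extraembryonic mesoderm-like nuclei. The kinase gene Csnk1g3 (r = 0.41) stayed between 131 and 219 CPM over the classes. The centrosome gene Cep120 (r = −0.04) and the predicted gene Gm19466 (r = 0.20) were at 1.15-fold and 1.96-fold of epiblast in extraembryonic mesoderm-like nuclei.

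Over the 19 accessibility clusters, the gene most like Prdm6 of 12185 compared was Tbx3, a T-box transcription factor, with a Pearson r of 0.95 on log2(CPM + 1). It was followed by Dpf3, a subunit of the BAF chromatin remodelling complex (0.93), Pwwp3b (0.90), the oxysterol-binding protein gene Osbpl8 (0.89), the growth factor gene Fgf10 (0.89), the zinc-finger gene Zfp516 (0.88), AC163638.2 (0.88), the transcription factor gene Gata4 (0.87), Gm14582 (0.87) and the interferon receptor gene Ifnar1 (0.86). The clusters share a library and differ in depth, and only 3 genes exceeded 0.9, with 36 above 0.8.

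These genes differed in how they split over the germ layers. With classes from accessibility, Tbx3 stood at 11.9 CPM in epiblast-like, 169 in embryonic mesoderm-like, 313 in haemato-endothelial progenitor-like and 150 CPM in visceral endoderm-like nuclei. Fgf10 was weighted to mesoderm, with 5.52, 336, 556 and 48.2 CPM in the same order. Gata4 was weighted to visceral endoderm, with 11.1, 314, 240 and 463 CPM. Ifnar1 moved little, from 16.4 CPM to 23.3, 26.2 and 23.8 CPM, so a high coefficient did not need a large change. Without the 3 clusters led by visceral endoderm markers, a choice made after seeing the data, Tbx3 stayed first at 0.96, followed by Pcsk5, a proprotein convertase gene (0.96), and Fgf10 (0.95), and the T-box gene Tbx20 came to 0.92. Over RNA clusters Gata4 was first, at 0.94.

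**Figure D5:**
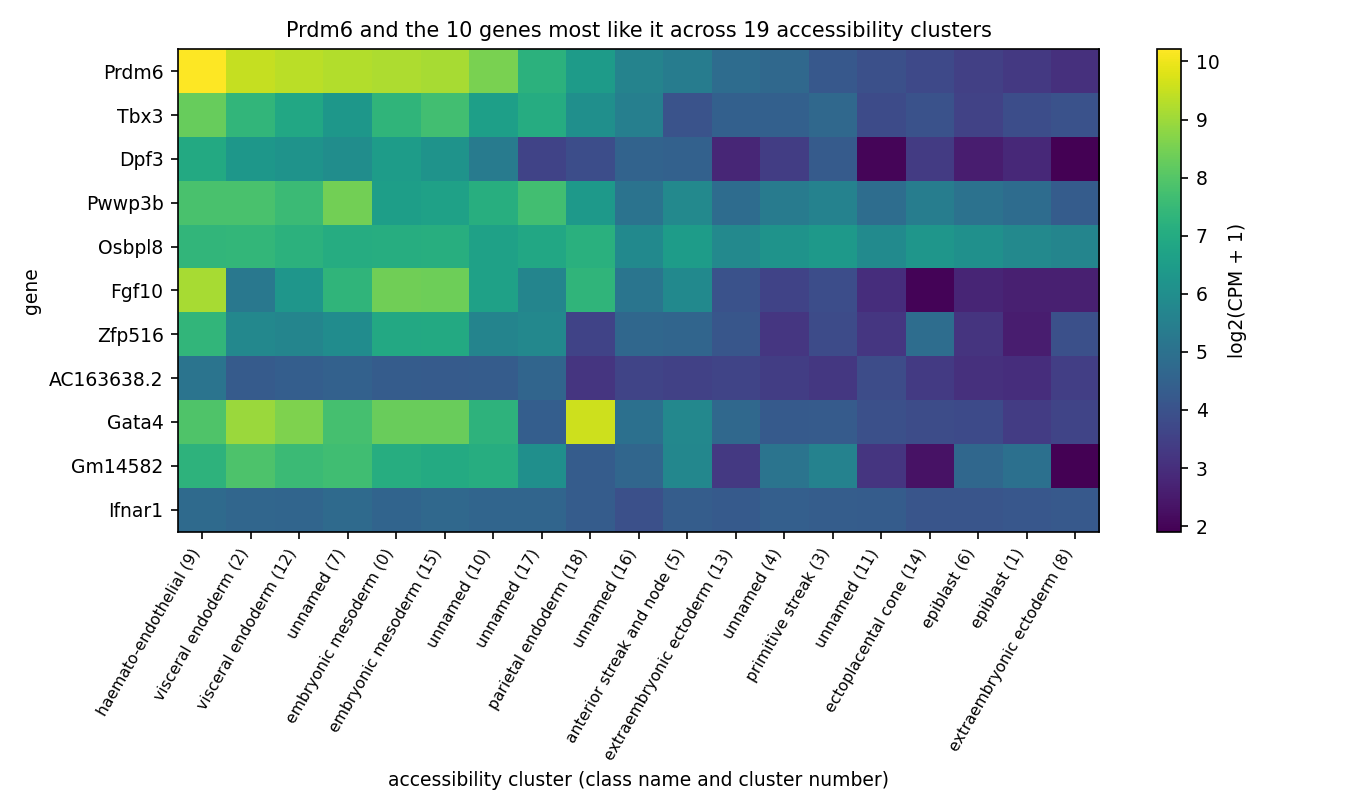
RNA of Prdm6 and the 10 genes most like it (rows) in the 19 accessibility clusters (columns, ordered by Prdm6 RNA), as log2(CPM + 1) on the colour scale. Fgf10 is darker in the visceral endoderm columns than in the mesoderm columns, and Gata4 the reverse, while Tbx3 is bright in both.

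None of the 14 other PRDM family genes tested reached the ratio of Prdm6 in any of 3 classes. Of 16 other members of the list, 14 had enough UMIs for the haemato-endothelial progenitor-like class by accessibility, and 4 of them were at least 2-fold higher and 2 lower than in epiblast-like nuclei, beside 10.5% of all genes higher and 13.3% lower. Zfpm1, a cofactor of GATA factors, was 10.5-fold higher (8.56 to 12.9), its relative Zfpm2 5.06-fold, Prdm1, a regulator of germ cells and lymphocytes, 2.25-fold, and Prdm14, a germ cell regulator, 3.35-fold on 11 UMIs. Mecom, a regulator of blood stem cells, stood at 0.344 of the epiblast level and Prdm16, a regulator of brown fat, at 0.425 on 5 UMIs (0.131 to 1.07). In embryonic mesoderm-like nuclei Prdm1, Prdm14 and Zfpm1 were higher, 3 of 14 and none lower, beside 9.06% higher and 12.1% lower of all genes. In visceral endoderm-like nuclei 4 of 14 were higher (Prdm1 15.1-fold, Prdm9 5.26-fold, Prdm2 2.27-fold and Zfpm1 8.79-fold), beside 16.5% of all genes. Prdm11, Zfpm2 and Mecom were among those lower, at 0.168 to 0.348 of the epiblast level, where 22.5% of all genes were lower. With doublets kept, the haemato-endothelial count of 4 was 2.

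Genes of chromatin partners and of the enzymes that methylate H4 lysine 20 stayed within 2-fold. With classes from accessibility, as for all gene lists, none of 10 passed 2-fold in either direction in the haemato-endothelial progenitor-like (10.5% of all genes higher and 13.3% lower), embryonic mesoderm-like (9.06% and 12.1%) or visceral endoderm-like class (16.5% and 22.5%). The most abundant were Cbx5, which encodes the heterochromatin protein HP1α, at 393 CPM in the haemato-endothelial class and 477 in epiblast-like nuclei, the histone methyltransferase gene Ehmt1 at 333 and 356 CPM, and the acetyltransferase gene Ep300 at 171 and 213 CPM. The largest departure was Cbx5 in visceral endoderm-like nuclei, at 0.529 of the epiblast level (0.512 to 0.546).

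Smooth muscle genes were compared next. In the haemato-endothelial progenitor-like class by accessibility 3 of 11 were higher and none lower, beside 10.5% and 13.3% of all genes: Myocd, the coactivator of smooth muscle transcription, at 8.22 CPM (4.08-fold, 2.75 to 6.08), and the actin genes Acta2 at 4.32 CPM and Actg2 at 3.03 CPM. In embryonic mesoderm-like nuclei Myocd (3.33-fold) and Actg2 (2.17-fold) were higher and the calponin gene Cnn1 lower, at 0.344, of 10 tested (9.06% of all genes higher and 12.1% lower). In visceral endoderm-like nuclei 1 of 11 was higher, Lmod1 on 16 UMIs (2.02-fold, 0.839 to 5.18), and 5 were lower, Myocd, Srf, Tagln, Cnn1 and Des, with Myocd at 0.224 CPM, beside 16.5% and 22.5% of all genes. With classes from RNA, the haemato-endothelial class had 1 of 10 higher, Actg2, and 3 lower, Tagln, Cnn1 and Myh11, beside 10.2% and 17.7% of all genes, and Myocd did not pass there, at 1.99-fold (0.871 to 4.02), while it stood at 5.43-fold (3.96 to 7.504) in extraembryonic mesoderm-like nuclei. The smooth muscle count in embryonic mesoderm-like nuclei was 0 with doublets kept.

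Blood and endothelial genes include some that gave the haemato-endothelial class its name, so their count there is a description. All but Gata1 of the 16 genes tested were higher in the haemato-endothelial progenitor-like class by accessibility, 15 of 16 beside 10.5% of all genes. The receptor gene Kdr reached 414 CPM, the haematopoietic regulator gene Runx1 208 CPM, the ETS factor genes Etv2 and Fli1 194 and 182 CPM, and Tal1 and Lmo2, partners in the stem cell leukaemia complex, 87.6 and 95.7 CPM. Also higher were Hapln1, Rhoj, Tek, Gata2, Hhex, Sox7, Itga2b, Cdh5 and Erg. Among embryonic mesoderm-like nuclei 6 of 13 were higher, beside 9.06% of all genes, with Kdr at 141 CPM, Etv2 at 20.7, and Fli1, Gata2, Hhex and Rhoj between 3.32 and 8.75 CPM, while Tek was lower at 0.664 CPM. In visceral endoderm-like nuclei 5 of 14 were higher, beside 16.5% of all genes, led by Runx1 at 145 CPM, with Sox7 at 16.4, Hhex at 11.2, Gata2 at 7.12 and Hapln1 at 0.716 CPM on 16 UMIs (2.02-fold, 0.839 to 5.18), and Tal1 was lower. With doublets kept, the embryonic mesoderm count of 6 was 2 and the visceral endoderm count of 5 was 10.

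Of the extraembryonic mesoderm and allantois genes, 10 of 11 tested were higher in the haemato-endothelial progenitor-like class by accessibility and none lower, beside 10.5% and 13.3% of all genes. This class is a mixture, in which 408 of the 650 nuclei were extraembryonic mesoderm-like by RNA. Tbx20, a T-box factor of cardiac and extraembryonic mesoderm, stood at 205 CPM against 2.60 CPM in epiblast-like nuclei, the homeobox gene Msx1 at 124 against 18.7, the ligand gene Bmp4 at 103 against 7.66, and Hand1 at 85.9 against 5.25 CPM. Foxf1, Msx2, Ahnak, Pmp22, Tdo2 and Wnt2 were also higher, at 7.78 to 84.9 CPM. The embryonic mesoderm-like class had 8 of 10 higher, beside 9.06% of all genes, with Wnt2 at 41.1 CPM against 10.7 CPM in the haemato-endothelial class, Msx1 at 77.6 and Tbx20 at 76.9 CPM, and Hand1, Foxf1, Msx2, Ahnak and Pmp22 between 9.59 and 28.2 CPM. With classes from RNA, which place 1096 nuclei in a class of extraembryonic mesoderm, 6 of 10 were higher, beside 7.76% of all genes, without Hand1 and Ahnak, and the median log2 ratio of the list was 1.05 in place of 2.32. The haemato-endothelial class from RNA had 9 of 10 higher and none lower, beside 10.2% and 17.7% of all genes. Its median log2 ratio was 1.91 in place of 4.03. In visceral endoderm-like nuclei 5 of 10 were higher, beside 16.5% of all genes, Msx1 at 99.6 CPM, Msx2 at 19.3, Pitx1 at 14.1, Tbx20 at 11.2 and Ahnak at 10.2 CPM. With doublets kept that count was 8, and with at least 2000 UMIs and peak counts it was 3. Of the marker list for extraembryonic mesoderm, Msx2, Pitx1 and Ahnak were thus among the genes higher in visceral endoderm-like nuclei, whereas Hand1 and Foxf1 did not pass 2-fold.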

How the data were processed

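The authors deposited 1 matrix of whole-number counts, UMIs for 32285 genes and counts for 229480 peaks in 15341 barcodes (182201512 UMIs and 273131304 peak counts), made with Cell Ranger ARC 2.0.0 on mm10 per the submitters' processing notes. The sources used here do not say whether intronic reads were counted. With 1 library for each assay, no test across samples was possible.

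Nuclei needed 1000 UMIs, 500 genes, 1000 peak counts and at most 20% mitochondrial UMIs. Scrublet (scanpy 1.11.5) called 1154 doublets (7.52%), and 1100 that had passed the limits were removed. RNA clusters used 2000 variable genes and 30 components, accessibility clusters a TF-IDF transform and 30 singular vectors without the first, both with 15 neighbours and Leiden at resolution 1. Clusters were named from marker lists, by a score set after the data were seen. The gene, its cell types and all lists were chosen with earlier results of these data known.

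A peak was a promoter peak if it overlapped the stretch between 1000 bp before and 100 bp after a gene start, or within 1000 bp for genes of unknown strand. Peak counts are cut ends, and 86.4% of values above 0 are even, so intervals for peak ratios used fragments estimated as the count divided by 2, rounded up. Intervals are 95% exact Poisson, binomial or conditional binomial ones. Genes and peaks needed 20 counts over the classes compared, and for likeness 50 UMIs in all and 10 CPM in 1 cluster.

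Genes named are Prdm6, those listed within 500000 bp, the 10 most similar genes and the list members past 2-fold, or the 3 most abundant where none was; peaks named are the promoter and the 10 leading following peaks. The just-inside and just-outside peaks, the visceral-weighted peaks, the other peaks beside the promoter and the genes named without the visceral clusters were chosen after their values were seen. Visceral endoderm-like nuclei, planned as a background class, carry the transcript, so epiblast-like nuclei took that place beside extraembryonic ectoderm-like ones. The peak rule was tried on simulated counts with changes planted only in peaks of high counts, so recovery of the weaker following peaks was not covered. A result for 1 gene of the lists is not reported here.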

Additional observations from a re-analysis of the deposited data

How the results depend on the processing

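Every ratio of Prdm6 RNA to epiblast-like nuclei stayed above 1, but 14 of 20 moved beyond their counting intervals. The haemato-endothelial progenitor-like ratio of 124 was 94.3 with at least 2000 UMIs and 2000 peak counts, 30.2 with doublets kept, 75.9 at resolution 0.5, 63.7 at resolution 2, 60.9 with classes from RNA clusters and 106 with 3000 variable genes. The embryonic mesoderm-like ratio of 61.4 was 44.2 at the stricter depth, 8.08 with doublets kept, 40.7 at resolution 2 and 36.1 with classes from RNA clusters. The visceral endoderm-like ratio of 73.2 was 16.5 with doublets kept, 60.7 at resolution 0.5 and 56.2 at resolution 2. Extraembryonic mesoderm-like nuclei by RNA, at 97.0-fold (87.8 to 108), went up instead. At resolution 2 they were 406 nuclei in place of 1096 and held 1491 CPM in place of 1077. Epiblast-like nuclei by RNA held 10.8 CPM there in place of 11.1. With doublets kept, the epiblast-like level was 27.5 CPM in place of 9.51, and the cause was not tested. Promoter ratios stayed within their intervals in 27 of 28 settings, the exception being visceral endoderm-like nuclei at 0.906 with a window of 2000 bp to each side. Narrowing the window to 50000 bp leaves fewer peaks, 8 that follow in mesoderm and 6 higher in visceral endoderm-like nuclei. The comparisons with visceral endoderm-like nuclei at 50000 bp and directly with mesoderm were added after seeing the data. At 3-fold, 9 peaks were higher in both mesoderm classes than in visceral endoderm-like nuclei. The following peaks in both mesoderm classes could not be recomputed at the stricter depth, with doublets kept or at resolution 0.5. The same held with 3000 variable genes and with accessibility classes at resolution 1. In each of these, no cluster was named extraembryonic mesoderm-like. Of the 10 most similar genes, 6 were among the first 10 at resolution 0.5, 5 over RNA clusters and 6 by Spearman rho. Of the list counts, 77 of 90 stayed within 1.5 times. In the haemato-endothelial class, the PRDM count of 4 was 2 with doublets kept, 2 at resolution 0.5 and 2 with RNA classes, and the smooth muscle count of 3 was 1 with RNA classes. In embryonic mesoderm-like nuclei with doublets kept, the PRDM count was 1, smooth muscle 0 and blood 2, and smooth muscle was 1 at resolution 2. In visceral endoderm-like nuclei, smooth muscle was 2 and extraembryonic mesoderm 3 at the stricter depth, and 0 and 8 with doublets kept, when blood was 10. No comparison of paired samples across replicates was possible, because the 2 samples are different assays of the same nuclei and share 1 replicate number. The pairing of the assays within each nucleus was used for the joint classes and for nuclei with and without a Prdm6 UMI. The 232 haemato-endothelial progenitor-like nuclei limit the precision of their weaker peaks.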
